A study of Homo sapiens with 6 samples.

Results

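The prostaglandin E2 pathway was followed through 10 genes in the human kidney cancer lines 786-O and A-498, both derived from clear cell renal cell carcinoma, with and without knockdown of the zinc finger protein ZNF395. The genes are the receptors PTGER4, PTGER2 and PTGER1, the cyclooxygenases PTGS1 and PTGS2, the synthases PTGES, PTGES2 and PTGES3, the inactivating dehydrogenase HPGD and the transporter SLCO2A1. They were found by symbol among the 32357 genes of the count table, and all 10 are in it. PTGER4 was selected because its level was higher with both hairpins than with the control, so its difference from the control is described below with no test. The other 9 were chosen for their role in the pathway. Each line had received a retroviral short hairpin construct and puromycin selection. The construct either targeted ZNF395 (called hairpin 1 or hairpin 3) or had no target, so the controls also carried virus and a hairpin. This gave 6 libraries of total RNA, 1 per line and construct, and no spread between repeat cultures was measured. Each line is a single established tumour line, and the hairpin sequences are not used here.

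Prostaglandin E2 is made in steps. Phospholipase A2 frees arachidonic acid from membranes, the cyclooxygenases turn it into the unstable prostaglandin H2, and prostaglandin E synthases convert that into prostaglandin E2. Outside the cell it acts on the EP receptors. EP2 (PTGER2) and EP4 (PTGER4) couple to the stimulatory G protein and raise cyclic AMP, whereas EP1 (PTGER1) acts mainly through calcium. SLCO2A1 carries the lipid back into cells, where HPGD oxidises it to an inactive product. In the kidney these receptors are known for their part in blood flow, renin release and salt and water handling.

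Library totals ran from 77534125 to 99147218 counts. ZNF395 stood at 96.3 and 67.9 CPM (counts scaled to library size, with TMM factors) in the controls of 786-O and A-498 and at 13.5 to 24.7 CPM in the 4 knockdown libraries. The renal marker PAX8 stood at 157 to 256 CPM in every library. CA9, a marker of clear cell carcinoma, was at 0 to 0.0126 CPM in 786-O and 0.399 to 1.68 CPM in A-498. Both genes belong to a list of 10 renal and clear cell markers that summed to 2410 to 3480 CPM. In edgeR's test 4 of the 10 were called higher in A-498 and 4 lower, beside 32.1% and 29.7% of all tested genes. The lower genes were NDUFA4L2 (log2 fold change -2.25), CDH6 (-1.45), NNMT (-1.22) and VIM (-1.15). CA9, among the higher genes, passed the filter on low counts through A-498 only. NDUFA4L2, with 6 to 14 counts in A-498, passed it through 786-O. In both genes this favours a line difference. Summed markers of other cell types ran from 0.280 to 1.10 CPM for the 5 immune genes found, 0.191 to 2.23 CPM for 4 endothelial genes and 5.23 to 10.6 CPM for 5 fibroblast genes. The 4 genes associated with HEK293, the line that packaged the virus, summed to 200 to 444 CPM. In that sum NEFL alone held 200 to 398 CPM and NEFM 44.1 to 45.2 CPM in A-498, and LIN28B and INA did not exceed 0.0401 CPM.

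PTGER4, the EP4 receptor gene, lies on chromosome 5 at 40679498 to 40693735 on the plus strand (GENCODE 29, GRCh38; the submitters' processing notes name hg19, and the count table holds no coordinates). Its level was 6.69 CPM in 786-O without knockdown, 18.9 CPM under hairpin 1 and 15.5 CPM under hairpin 3. In A-498 it was 4.35 CPM without knockdown, 11.4 CPM under hairpin 1 and 8.66 CPM under hairpin 3. Every knockdown library therefore lay above both controls, and within each line hairpin 1 gave the higher level. The order from high to low was 786-O hairpin 1, 786-O hairpin 3, A-498 hairpin 1, A-498 hairpin 3, 786-O control and A-498 control. The 95% counting intervals of neighbours in this order did not overlap, for example 8.09 to 9.27 CPM for A-498 with hairpin 3 and 6.13 to 7.29 CPM for the 786-O control. These exact Poisson intervals cover counting error only, and with 1 library per condition the spread between cultures is unknown. PTGER4 was selected for lying above the controls, so the gap between knockdown and control libraries is no separate evidence of a rise.

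Against the control of the same line, PTGER4 was 2.82 times as high with hairpin 1 (95% counting interval 2.55 to 3.12) and 2.32 times with hairpin 3 (2.09 to 2.57) in 786-O. In A-498 it was 2.61 times as high (2.33 to 2.93) and 1.99 times (1.77 to 2.24). Fitted over both lines, the log2 difference from the control was 1.44 (SE 0.160) for hairpin 1 and 1.10 (SE 0.159) for hairpin 3. These contrasts selected the gene, so nothing is read from the background of 0.0397% of 20144 tested genes called up with hairpin 1 and 2.55% with hairpin 3. The hairpins share the control libraries. Leaving out 1 library at a time gave 1.37 to 1.5 for hairpin 1 and 1.04 to 1.17 for hairpin 3. The authors' deposited table gives PTGER4 a log2 fold change of -1.09 (standard error 0.202), with control over knockdown. These values come from the same 6 libraries that selected the gene, so they are a description and not separate support. In bulk RNA, more cells with the transcript and more transcript per cell cannot be told apart.

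**Figure D1:**
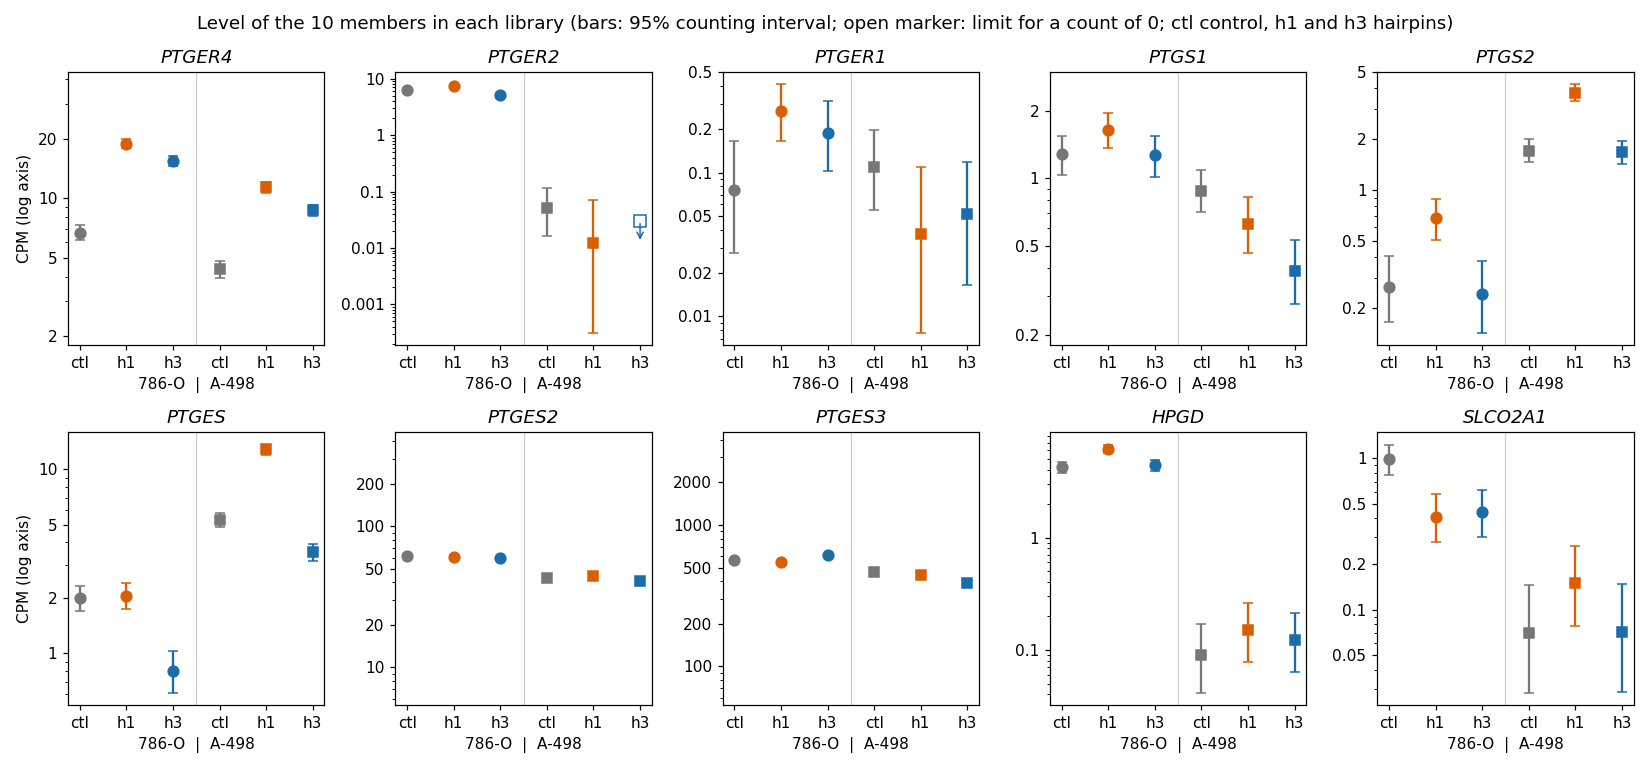
Level of each of the 10 genes in the 6 libraries, in CPM on a log axis, with circles for 786-O, squares for A-498, grey for control, orange for hairpin 1 and blue for hairpin 3. Bars are 95% counting intervals, and the open square marks the limit that a count of 0 allows. PTGER4 lies at 8.66 to 18.9 CPM in the knockdown libraries and at 4.35 and 6.69 CPM in the controls, while PTGER2 and HPGD separate the lines.

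Contrasts that did not select PTGER4 were tested. Hairpin 3 against hairpin 1 gave a log2 difference of -0.34 (SE 0.156), lower with hairpin 3 in both lines, which did not pass edgeR's quasi-likelihood test (adjusted p = 0.217). The response to knockdown, with both hairpins together, differed between A-498 and 786-O by -0.16 on the log2 scale (SE 0.494), and this difference did not pass either (edgeR, adjusted p = 1). Leaving out the 786-O hairpin 1 library or the A-498 hairpin 3 library moved that difference to 0.03 or 0.05. PTGER4 was lower in A-498 than in 786-O by a log2 fold change of -0.73 (SE 0.129, edgeR adjusted p = 0.00247), and this held with each construct. No gene of the 20144 tested passed for a difference between lines in the knockdown response, with edgeR (159 at an unadjusted p under 0.05) or with DESeq2 (0). In this model the hairpins of a line serve as replicates, so differences between hairpins enter its error. Since 9.48% of tested genes differed between the hairpins, the lack of calls does not show that the lines respond alike.

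The gene span of PTGER4 overlaps TTC33 on the opposite strand in GENCODE 29, with 0 shared exon bases. Whether counting used strand is not stated in the labels or headers, so the levels of TTC33 are given beside those of PTGER4. TTC33 stood at 27.4, 29.2 and 18 CPM in 786-O (control, then hairpin 1, then hairpin 3). In A-498 it stood at 14.4, 16.2 and 9.31 CPM. TTC33 fell with hairpin 3 (log2 fold change -0.62, SE 0.136, edgeR adjusted p = 0.0450), and the value with hairpin 1 was 0.13 (adjusted p = 0.801). The fall with hairpin 3 lost its call without the 786-O control (adjusted p = 0.371), the A-498 control (0.315), the 786-O hairpin 1 library (0.0827) or the A-498 hairpin 3 library (0.0517).

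The promoter of PTGER4 is shown because its transcript was higher with both hairpins, beside those of PTGER2, the other receptor that raises cyclic AMP, and PTGS2, the inducible cyclooxygenase. The sequences are RefSeq windows of 250 bases before the gene's start (GRCh38.p14), read 5′ to 3′ along the gene, and 9 of the 10 genes matched the RefSeq table by symbol, all but SLCO2A1. RefSeq and GENCODE 29 place the start of PTGER4 differently, so its window lies inside the gene span given above. The windows are chr5:40679665-40679914 on the plus strand for PTGER4, chr14:52314062-52314311 on the plus strand for PTGER2 and chr1:186680424-186680673 on the minus strand for PTGS2. Capitals mark motif matches on either strand: the NF-kB consensus in PTGER4, GCCGGCG on both strands in overlap and TGACG in PTGER2, and TGACG and the TATA box TATAAA in PTGS2.
PTGER4: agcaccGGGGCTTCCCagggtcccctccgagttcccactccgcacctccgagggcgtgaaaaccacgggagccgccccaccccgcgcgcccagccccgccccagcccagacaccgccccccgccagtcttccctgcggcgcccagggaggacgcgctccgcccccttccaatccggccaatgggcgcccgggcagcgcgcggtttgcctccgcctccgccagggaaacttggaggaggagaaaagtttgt
PTGER2: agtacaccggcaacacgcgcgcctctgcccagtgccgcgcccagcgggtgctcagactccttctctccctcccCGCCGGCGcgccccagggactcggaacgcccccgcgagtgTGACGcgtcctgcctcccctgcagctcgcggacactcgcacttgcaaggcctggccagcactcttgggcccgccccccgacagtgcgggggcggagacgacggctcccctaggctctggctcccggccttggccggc
PTGS2: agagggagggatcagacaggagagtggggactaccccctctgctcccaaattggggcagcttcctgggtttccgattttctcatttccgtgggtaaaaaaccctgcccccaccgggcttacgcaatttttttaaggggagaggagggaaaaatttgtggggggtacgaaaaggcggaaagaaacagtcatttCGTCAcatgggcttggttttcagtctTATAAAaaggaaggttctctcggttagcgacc

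The motifs searched on both strands were the cyclic AMP response element TGACGTCA, its shorter form TGACG, the E-box CACGTG, the TATA box TATAAA, the GC-rich word GCCGGCG and the NF-kB consensus. In the PTGER4 window a match to the NF-kB consensus spans bases 244 to 235 before the start. Such a match is held by 5.21% of the 35116 windows of the same length in the RefSeq table. TGACG is held by 21.2% of windows, TATAAA by 10.7% and GCCGGCG by 8.88%. PTGS2 holds TATAAA 32 to 27 bases before its start, and TGACG 58 to 54 bases before it on the other strand. The PTGER4 window has 26 CpG dinucleotides and that of PTGER2 has 28, both above the upper quartile of 23 over all windows, whereas PTGS2 has 9, below the median of 11. These matches describe letters only.

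Among the other EP receptors, PTGER2 was a transcript of 786-O. It stood at 6.39 CPM in 786-O without knockdown, 7.33 CPM under hairpin 1 and 5.06 CPM under hairpin 3. In A-498 it had 5 counts without knockdown, 1 under hairpin 1 and 0 under hairpin 3, the last of which allows up to 0.0306 CPM (3 counts; the upper end of its 95% counting interval is 0.0377 CPM). Summed over the 3 libraries of each line, 786-O had 291 times the level of A-498 (1459 against 6 counts, 95% counting interval 133 to 793). The line difference passed edgeR's test (adjusted p = 1.84e-05), with a fitted log2 fold change of -8.10 (SE 0.469). Its size depends on the default prior count of edgeR's fit, which is separate from the prior count used for log CPM. PTGER2 did not pass against the control with either hairpin: the log2 differences from the control were 0.01 (SE 0.526, edgeR adjusted p = 0.998) for hairpin 1 and -0.56 (SE 0.454, adjusted p = 0.492) for hairpin 3. With 1 library left out the hairpin 3 value ran from -4.54 (without the 786-O hairpin 3 library) to -0.40 (without the A-498 hairpin 3 library). Within 786-O the ratios to the control were 1.15 and 0.793.

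Per kilobase of exon in GENCODE 29, PTGER2 and PTGER4 stood at 2.58 and 1.74 CPM per kilobase in the 786-O control. With hairpin 1 they stood at 2.96 and 4.91 CPM per kilobase, and with hairpin 3 at 2.05 and 4.03. PTGER2 was thus the higher of the pair in the 786-O control and PTGER4 the higher in both 786-O knockdown libraries. The change of order rests on the rise for which PTGER4 was selected. It also rests on exon length, since in plain CPM PTGER4 was the higher in the 786-O control too (6.69 against 6.39 CPM). In A-498 PTGER4 was the higher in every library, at 1.13 to 2.95 CPM per kilobase against 0 to 0.0203 for PTGER2. The annotation used by the authors may give other exon lengths.

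PTGER1 and PTGER3 were close to the limit of detection. PTGER1 had 6 counts in 786-O without knockdown, 21 under hairpin 1 and 14 under hairpin 3, and 11, 3 and 5 counts in the matching A-498 libraries. Its 786-O knockdown libraries lay above their control and its A-498 knockdown libraries below theirs. The line difference did not pass edgeR's test (log2 fold change -1.30, SE 0.635, adjusted p = 0.114). It passed without the 786-O control (-2.28, adjusted p = 0.0216) or the A-498 control (-2.28, adjusted p = 0.0223), and went to -0.65 (adjusted p = 0.444) without the A-498 hairpin 1 library. PTGER3, the EP3 receptor, which lowers cyclic AMP, had 1 to 2 counts in 786-O and 9 to 11 counts in A-498 and did not pass the expression filter.

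The cyclooxygenases were low in both lines and went opposite ways between them. PTGS2, the inducible enzyme, stood at 0.266 CPM in 786-O without knockdown, 0.677 CPM under hairpin 1 and 0.240 CPM under hairpin 3. In A-498 it stood at 1.71, 3.78 and 1.67 CPM. The hairpin 1 library was the highest of its line both times, and hairpin 3 lay near the control. Hairpin 1 gave 2.55 times the control in 786-O (95% counting interval 1.51 to 4.45) and 2.21 times in A-498 (1.82 to 2.68). Fitted over both lines, the log2 difference between hairpin 1 and the control was 1.22 (SE 0.258), which did not pass edgeR's test (adjusted p = 0.183). It passed with no filter on low counts (adjusted p = 0.0323), with DESeq2 (0.0414), and when a hairpin 3 library was dropped (0.0328 for that of 786-O, 0.0436 for that of A-498), and its adjusted p over all alternatives ran from 0.0323 to 1.

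PTGS2 was lower with hairpin 3 than with hairpin 1, by a log2 fold change of -1.30 (SE 0.259, edgeR adjusted p = 0.0307). That call was lost without the 786-O control (adjusted p = 0.0612), the 786-O hairpin 1 library (0.15), the A-498 control (0.0622), the A-498 hairpin 1 library (0.130) or the A-498 hairpin 3 library (0.0574), in fits with 1 residual degree of freedom. The direction held in all of them. PTGS2 was higher in A-498 than in 786-O (2.63, SE 0.220, edgeR adjusted p = 9.01e-05).

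PTGS1, the constitutive cyclooxygenase, stood at 1.28, 1.65 and 1.27 CPM in 786-O (control, then hairpin 1, then hairpin 3). In A-498 it stood at 0.883, 0.624 and 0.388 CPM, so that all 3 A-498 libraries lay below all 3 of 786-O. The line difference passed edgeR's test (log2 fold change -1.19, SE 0.283, adjusted p = 0.00927) and missed it without the 786-O hairpin 1 library (-1.09, adjusted p = 0.0575). Per kilobase of exon, PTGS1 exceeded PTGS2 in every 786-O library, and PTGS2 exceeded PTGS1 in every A-498 library. The controls had 0.225 against 0.0588 CPM per kilobase in 786-O and 0.155 against 0.380 in A-498.

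Of the prostaglandin E synthases, PTGES differed between the hairpins, and all 3 differed between the lines. PTGES, the microsomal enzyme that works with PTGS2, stood at 1.99 CPM in 786-O without knockdown, 2.06 CPM under hairpin 1 and 0.800 CPM under hairpin 3. In A-498 it stood at 5.30, 12.8 and 3.53 CPM. Hairpin 3 gave the lowest level of each line, and hairpin 1 lay above the control in A-498 (ratio 2.42, 95% counting interval 2.18 to 2.69) and level with it in 786-O (1.04, 0.826 to 1.30). PTGES fell from hairpin 1 to hairpin 3 by 1.65 on the log2 scale (SE 0.312, edgeR adjusted p = 0.0270). The call was lost without the 786-O hairpin 1 library (-2.01, adjusted p = 0.0574) or the A-498 hairpin 1 library (-1.14, adjusted p = 0.167).

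Against the control, PTGES did not pass edgeR's test with hairpin 1 (0.70, SE 0.305, adjusted p = 0.499) or hairpin 3 (-0.95, SE 0.314, adjusted p = 0.118). With hairpin 3 it passed with no filter on low counts (adjusted p = 0.0335) and with DESeq2 (0.0444). With 1 library left out the value ran from 0.16 (without the A-498 control) to 1.18 (without the 786-O control) for hairpin 1. For hairpin 3 it ran from -1.48 (without the A-498 control) to -0.45 (without the 786-O control, adjusted p = 0.672). PTGES was higher in A-498 than in 786-O (2.07, SE 0.259, edgeR adjusted p = 5.42e-04), as PTGS2 was. The A-498 hairpin 1 library thus held the highest level of both genes among the 6.

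PTGES2, a second membrane-associated synthase, stood at 59.2 to 61.5 CPM in the 786-O libraries and 40.9 to 44.7 CPM in those of A-498. PTGES3, also known as the HSP90 co-chaperone p23, stood at 547 to 615 CPM and 391 to 468 CPM. Both were lower in A-498, by log2 fold changes of -0.49 (SE 0.0941, edgeR adjusted p = 0.00355) and -0.41 (SE 0.118, adjusted p = 0.0200). The second of these missed the threshold without the 786-O control (-0.47, adjusted p = 0.0520). Against the control, PTGES2 differed by 0.02 with hairpin 1 and -0.07 with hairpin 3 (SE 0.115 for each), and PTGES3 by -0.06 and -0.07 (SE 0.144 for each), all with an edgeR adjusted p of at least 0.763.

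HPGD, which inactivates prostaglandin E2, was like PTGER2 a transcript of 786-O. It stood at 4.22 CPM in 786-O without knockdown, 6.18 CPM under hairpin 1 and 4.41 CPM under hairpin 3, against 0.0903, 0.150 and 0.123 CPM in A-498, where 9, 12 and 12 counts lie behind the values. Over the summed counts 786-O had 41.6 times the level of A-498 (95% counting interval 29.4 to 60.7). The fitted log2 fold change of A-498 against 786-O was -5.34 (SE 0.233, edgeR adjusted p = 6.61e-06). HPGD lay above the control in all 4 knockdown libraries, as did 12.8% of all tested genes. The ratio with hairpin 1 in 786-O was 1.46 (95% counting interval 1.27 to 1.69), and the fitted difference did not pass edgeR's test (0.59, SE 0.257, adjusted p = 0.497).

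SLCO2A1, the uptake transporter, stood at 0.986 CPM in 786-O without knockdown, 0.409 CPM under hairpin 1 and 0.440 CPM under hairpin 3. In A-498 it had 7, 12 and 7 counts, or 0.0702, 0.150 and 0.0715 CPM. In 786-O the ratios to the control were 0.414 (95% counting interval 0.265 to 0.632) and 0.446 (0.287 to 0.678), and in A-498 they were 2.13 (0.774 to 6.40) and 1.02 (0.305 to 3.40). Over both lines SLCO2A1 did not pass edgeR's test with hairpin 1 (-0.55, SE 0.537, adjusted p = 0.789) or hairpin 3 (-0.86, SE 0.532, adjusted p = 0.361). It was lower in A-498 (-2.61, SE 0.464, edgeR adjusted p = 0.00259), but it passed the expression filter through 786-O, which favours a line difference.

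**Figure D2:**
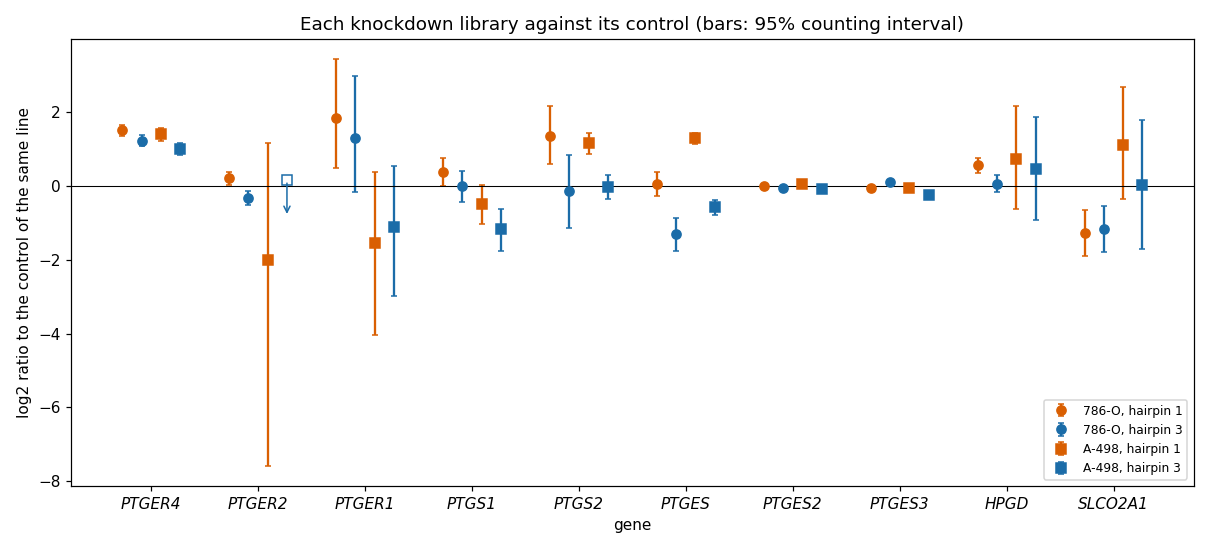
Log2 ratio of each knockdown library to the control of its own line for the 10 genes, with circles for 786-O, squares for A-498, orange for hairpin 1, blue for hairpin 3 and bars for the 95% counting interval. The open square is an upper bound for PTGER2 at a count of 0. The 4 ratios of PTGER4 lie between 0.99 and 1.5, while those of PTGS2 and PTGES are higher with hairpin 1 than with hairpin 3 in both lines.

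Counted together, 0 of the 9 genes other than PTGER4 passed edgeR's test against the control with hairpin 1, where 0.149% of all tested genes were called (0.0397% up, 0.109% down), and 0 of 9 with hairpin 3, where 6.71% were (2.55% up, 4.16% down). At an unadjusted p under 0.05 there was 1 gene each time, PTGS2 with hairpin 1 and PTGES with hairpin 3, and DESeq2 called the same gene in each case. Of the 20144 tested genes, 2106 were under that unadjusted p in edgeR with hairpin 1 and 5205 with hairpin 3. DESeq2 called 474 and 2623 of them. The median log2 difference of the 9 was 0.02 with hairpin 1 and -0.08 with hairpin 3, beside 0.00 and -0.01 over all genes. Between the hairpins 2 of the 10 were lower with hairpin 3, PTGES and PTGS2, and 0 higher, against 9.48% of all genes called (4.09% higher, 5.4% lower). The median of the 10 was -0.39, beside -0.01 over all genes.

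Between the lines 9 of the 10 genes differed, against 61.9% of all tested genes. Genes near the floor in A-498, PTGER2 and SLCO2A1 among them, passed the expression filter through their 786-O libraries, which favours a line difference. Lower in A-498 were 7, PTGER4, PTGER2, PTGS1, PTGES2, PTGES3, HPGD and SLCO2A1 (background 29.7%), and higher were 2, PTGS2 and PTGES (background 32.1%). In 6 of the 7, all but PTGER4, every 786-O library lay above every A-498 library, as for 28% of all genes, and for PTGS2 and PTGES every A-498 library lay above every 786-O library, as for 31.1%. PTGER4 was lower in A-498 within each construct, but the A-498 knockdown libraries exceeded the 786-O control.

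The same comparison was made for the other genes of the pathway. Of 6 phospholipases tested, 3 were higher in A-498, beside 32.1% of all tested genes. Among them PLA2G4A, the cytosolic enzyme that frees arachidonic acid, stood at 7.50 to 8.53 CPM there against 0.107 to 0.460 CPM in 786-O (log2 fold change 5.02, SE 0.379, edgeR adjusted p = 5.79e-05). PLA2G4C (3.62) and PLA2G10 (3.10) were the others. PLA2G10 had 5, 2 and 3 counts in 786-O (control, then hairpin 1, then hairpin 3) and 40, 25 and 41 in A-498. It thus passed the expression filter through A-498 only. Of 8 other prostanoid synthases and reductases tested, 5 were higher and 2 lower in A-498, beside 32.1% and 29.7% of all tested genes. The prostacyclin synthase PTGIS stood at 22.2 to 38.8 CPM in A-498 and 0.173 to 0.658 CPM in 786-O (6.44, SE 0.248, edgeR adjusted p = 4.44e-06). AKR1C3, a prostaglandin F synthase, was higher by 5.83 and the carbonyl reductase CBR1 by 0.79, while FAM213B was lower (-1.80). The other lower gene, PTGDS (-3.19), had 67, 54 and 35 counts in 786-O and 6, 11 and 3 in A-498. It passed the expression filter through 786-O, which favours a line difference.

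Of 6 other prostanoid receptors in the count table, 3 passed the expression filter. All 3 differed between the lines in edgeR's test, beside 61.9% of all tested genes. The thromboxane receptor TBXA2R was higher in A-498 (3.49, SE 0.193, edgeR adjusted p = 1.51e-05). PTGDR2, a receptor for prostaglandin D2, was higher too (2.18, adjusted p = 0.00725), though with DESeq2 its adjusted p was 0.0537. It had 4, 2 and 2 counts in 786-O (control, then hairpin 1, then hairpin 3) and 17, 16 and 11 in A-498. PTGDR2 thus passed the filter through A-498 only, which favours a line difference, so the count of receptors that differ is partly set by the filter. The prostaglandin F receptor PTGFR was lower in A-498 (-2.56, adjusted p = 0.00221). Of 4 genes for breakdown and export, PTGR1, a prostaglandin reductase, was higher (1.90) and ZADH2 lower (-1.40).

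**Figure D3:**
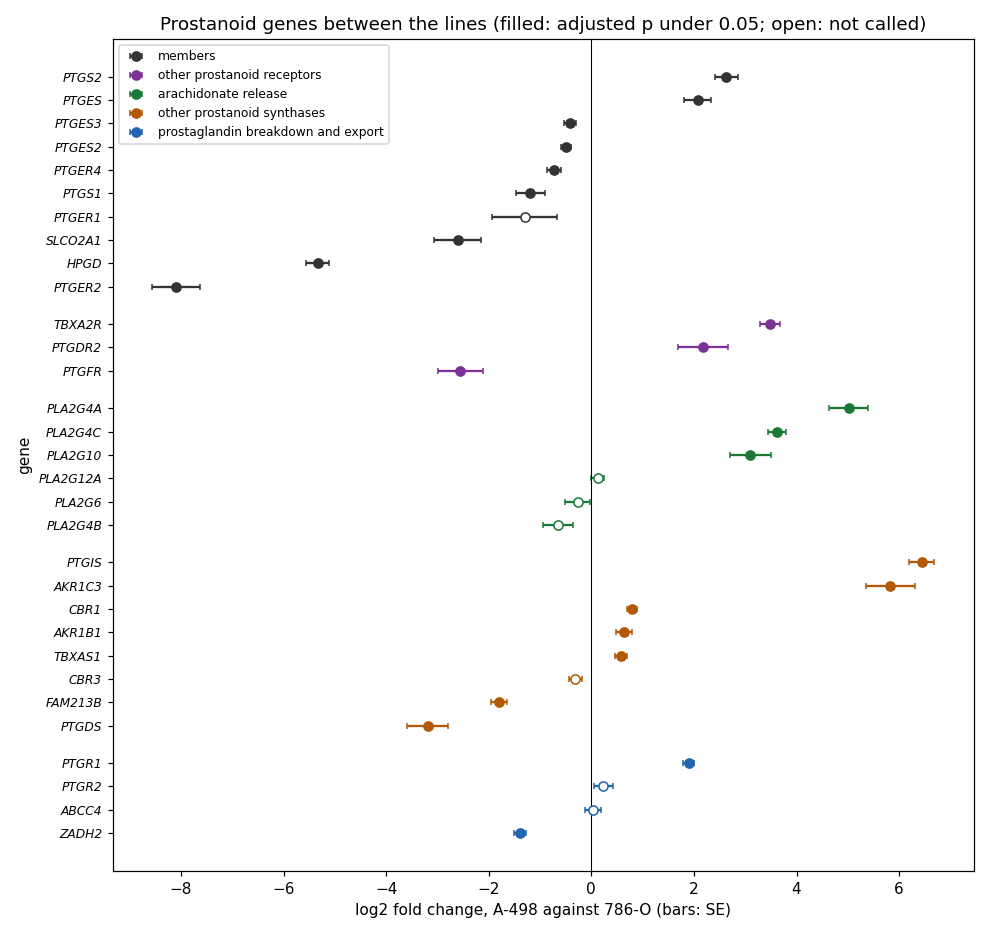
Log2 fold change of A-498 against 786-O with its standard error for the 10 genes and for the other prostanoid genes tested, grouped by role, with filled points for an adjusted p under 0.05. PTGER2 and HPGD lie farthest to the 786-O side at -8.10 and -5.34, and PTGIS, AKR1C3 and PLA2G4A farthest to the A-498 side at 6.44, 5.83 and 5.02.

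Downstream of EP2 and EP4, 26 genes of cyclic AMP signalling were tested. Between the lines 11 of the 26 were higher in A-498 and 7 lower, beside 32.1% and 29.7% of all tested genes. Of the higher genes, RAPGEF4 (1 to 2 counts in 786-O), PDE4B (2 to 21) and PDE4C (2 to 10) passed the expression filter through A-498. This favours a line difference, so the count of higher genes is partly set by the filter. The 4 of the 26 with the smallest p were the phosphodiesterase gene PDE4D (log2 fold change 2.96), the kinase subunit genes PRKAR2A (-1.87) and PRKAR2B (1.90) and the arrestin gene ARRB2 (2.29). With hairpin 1 none passed edgeR's test (3 at an unadjusted p under 0.05), and DESeq2 called 2, ADCY6 and ADCY9, both lower (edgeR log2 differences -0.54 and -0.88). Of the 20144 tested genes, edgeR called 0.149%, 2106 were under that unadjusted p in edgeR and DESeq2 called 474. With hairpin 3 edgeR called 1 of the 26 higher and 3 lower, beside 2.55% and 4.16% of all tested genes. DESeq2 called 7 (ADCY6, ADCY9, ATF1, CRTC3, PDE4D, PRKAR2B and RAPGEF3), beside 2623 of the 20144 tested genes. Of these 7, ATF1, CRTC3 and PDE4D were higher without an edgeR call (edgeR log2 differences 0.5, 0.51 and 0.61). The median over the 26 was 0.09, beside -0.01 over all genes. The adenylate cyclase gene ADCY9 rose with hairpin 3, the opposite sign to its value with hairpin 1 (0.73, SE 0.160, edgeR adjusted p = 0.0443), with 786-O going from 36.1 to 73.4 CPM and A-498 from 86.4 to 119 CPM. PRKAR2B (-1.5, adjusted p = 0.0166), the cyclic AMP-activated exchange factor gene RAPGEF3 (-0.96, adjusted p = 0.0211) and the adenylate cyclase gene ADCY6 (-0.76, adjusted p = 0.0260) fell. For PRKAR2B this meant 786-O going from 2.88 to 1.08 CPM and A-498 from 10.2 to 3.45 CPM.

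These 4 calls were all lost without the 786-O control (adjusted p = 0.342, 0.0961, 0.124 and 0.165 in the order ADCY9, PRKAR2B, RAPGEF3, ADCY6) or without the A-498 control (0.0861, 0.0912, 0.186 and 0.187). That of ADCY9 was also lost without the hairpin 1 or hairpin 3 library of 786-O (0.0626 and 0.0580). Between the hairpins ADCY9 was higher with hairpin 3 (1.61, SE 0.163, edgeR adjusted p = 0.00870) and PRKAR2B lower (-1.81, adjusted p = 0.00931), and both calls held without any single library. RAPGEF3 was lower as well (-0.80, adjusted p = 0.0274), but not without the 786-O control (0.0549), the 786-O hairpin 1 library (0.148) or the A-498 control (0.0563).

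Genes that answer to CREB, the transcription factor activated by cyclic AMP, were tested as 15 genes, of which CREM, PDE4B and PDE4D also belong to the signalling list. With hairpin 1 none passed edgeR's test, beside 0.149% of all tested genes. At an unadjusted p under 0.05 there were 2, beside 2106 of the 20144 tested genes. DESeq2 called FOS, which was lower (edgeR log2 difference -1.16), and IL6, which was higher (1.72), beside 474 of all tested genes. With hairpin 3 edgeR called 1 of the 15, IL6, which rose (1.23, SE 0.224, adjusted p = 0.0288), beside 2.55% of all tested genes called higher. DESeq2 called 3 (IL6, PDE4D and VEGFA), beside 2623 of the 20144 tested genes. IL6 stood at 5.88, 18.8 and 17.8 CPM in 786-O (control, then hairpin 1, then hairpin 3) and at 17.3, 58.6 and 30.9 CPM in A-498. It is also a target of NF-kB, and its call was lost without the 786-O control (adjusted p = 0.155) or the A-498 control (0.0869). NR4A1, an early target of CREB, was 1 of the 14 genes not called with hairpin 3 (edgeR adjusted p = 0.201). With hairpin 1, where no gene of the list was called, its edgeR adjusted p was 0.939. Values of the 15 went both ways. With hairpin 1, 8 were above 0 (median 0.03, beside 0 over all genes), and with hairpin 3, 9 were (median 0.29, beside -0.01). VEGFA was higher with hairpin 3 than with hairpin 1 (0.64, SE 0.125, edgeR adjusted p = 0.0288), but not without either control (0.0516 and 0.0503) or either hairpin 1 library (0.110 in 786-O and 0.125 in A-498). Between the lines 7 of the 15 were higher in A-498, among them FOS (2.56), NR4A1 (2.34) and IL6 (1.33), and 4 were lower, beside 32.1% and 29.7% of all tested genes. PDE4B, another of the 7, passed the expression filter through A-498, which favours a line difference. The lower genes, named after their values were seen, were PPARGC1A (-2.13), RGS2 (-1.19), VEGFA (-0.57) and CREM (-0.50).

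Upstream and beside prostaglandin E2, edgeR called 2 of 8 other synthases and 1 of 4 genes for breakdown and export with hairpin 3, all lower, beside 4.16% of all tested genes lower and 2.55% higher, and 0 of 3 receptors and 0 of 6 phospholipases. DESeq2 called 5 of the 8 (AKR1B1, CBR1, FAM213B, PTGIS and TBXAS1) and 1 of the 4 (PTGR1), beside 2623 of the 20144 tested genes. With hairpin 1 edgeR called 0 in these lists, beside 0.149% of all tested genes. DESeq2 called 2 phospholipase genes with hairpin 1, beside 474 of the 20144 tested genes. PLA2G12A was lower (edgeR log2 difference -0.74) and PLA2G4C higher (1.06). TBXAS1, the thromboxane synthase, fell with hairpin 3 (-0.86, SE 0.135, edgeR adjusted p = 0.0206), with 786-O going from 26.2 to 13.6 CPM and A-498 from 38.6 to 22.6 CPM. FAM213B, a prostamide and prostaglandin F synthase, fell by 0.96 (adjusted p = 0.0296) and PTGR1 by 0.56 (adjusted p = 0.0483). Without the 786-O control the adjusted p of these 3 was 0.157, 0.0894 and 0.212, and without the A-498 control 0.156, 0.211 and 0.401. That of FAM213B was 0.0528 without the 786-O hairpin 1 library, and that of PTGR1 was 0.0627 without it, 0.0639 without the 786-O hairpin 3 library and 0.0543 without the A-498 hairpin 3 library.

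Between the hairpins TBXAS1 (-0.99, SE 0.136, edgeR adjusted p = 0.0126) and PLA2G4C (-0.86, adjusted p = 0.0461) were lower with hairpin 3, and ZADH2 was higher (0.75, adjusted p = 0.0273). The call on TBXAS1 was lost without the 786-O hairpin 1 library (0.0771). That on PLA2G4C was lost whichever of the 6 libraries was left out (adjusted p from 0.0522 to 0.202). That on ZADH2 was lost without the 786-O control (0.0570), the A-498 control (0.0544) or a hairpin 1 library (0.0829 for 786-O, 0.146 for A-498). Over all 59 genes of the lists, edgeR called 0 with hairpin 1 (8 at an unadjusted p under 0.05) and DESeq2 called 6. Of the 20144 tested genes, edgeR called 0.149% with hairpin 1, 2106 were under that unadjusted p in edgeR and DESeq2 called 474. With hairpin 3 edgeR called 8 of the 59, or 2 up and 6 down, beside 6.71% of all tested genes (2.55% up, 4.16% down). DESeq2 called 15 of the 59, and 2623 of the 20144 genes.

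**Figure D4:**
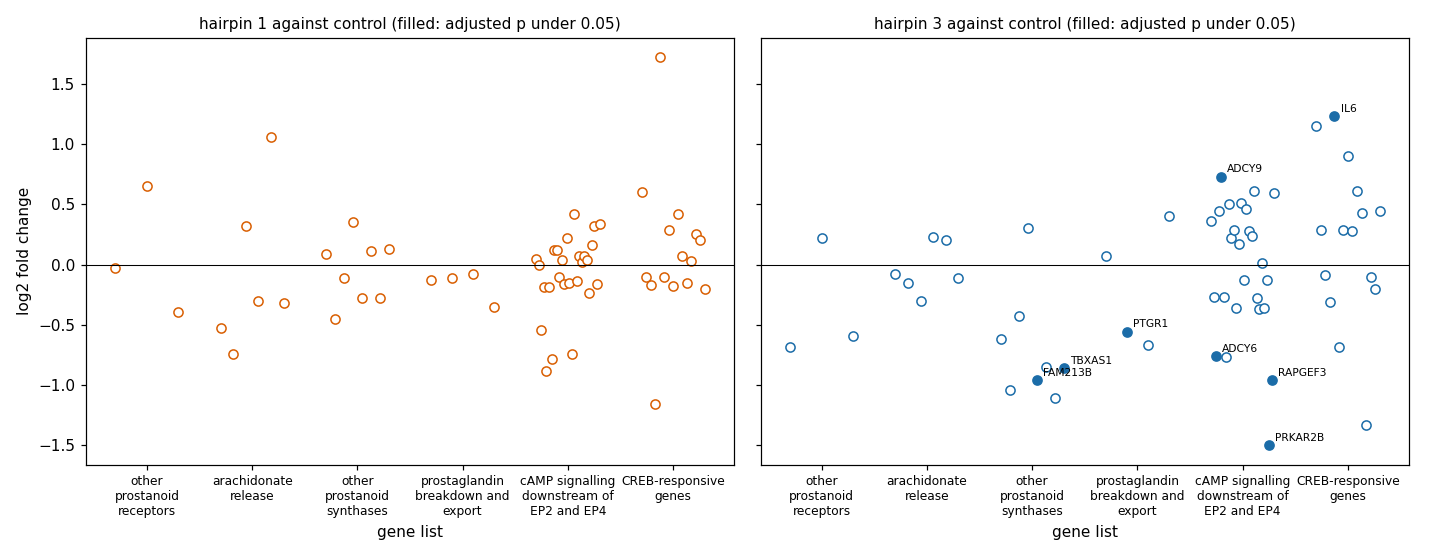
Log2 fold change of each list gene against the control with hairpin 1 (left) and hairpin 3 (right), 1 point per gene, filled and named where the adjusted p was under 0.05. Both panels share the control libraries. No point is filled for hairpin 1, and for hairpin 3 ADCY9 and IL6 are filled above 0 and 6 genes below it.

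The genes whose profile over the 6 libraries was most like that of PTGER4 were found by the smallest root mean square difference between gene-centred log2 CPM values. HSD17B10, a mitochondrial dehydrogenase, came first (0.182, Pearson r 0.967), followed by DYNLRB1, a dynein light chain gene (0.246, r 0.967). The others were AC002480.4 (0.251), RP11-81A22.5 (0.256) and SLC16A3, a lactate transporter gene (0.259, r 0.963). The points are the 6 libraries, which share the line difference and the controls, so the likeness is a description. These genes were picked for it, and PTGER4 for its rise with both hairpins, so a shared rise follows from the selection. SLC16A3 stood at 184, 380 and 335 CPM in 786-O (control, then hairpin 1, then hairpin 3) and at 141, 243 and 173 CPM in A-498. AC002480.4 did not exceed 0.804 CPM and RP11-81A22.5 did not exceed 0.153 CPM.

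**Figure D5:**
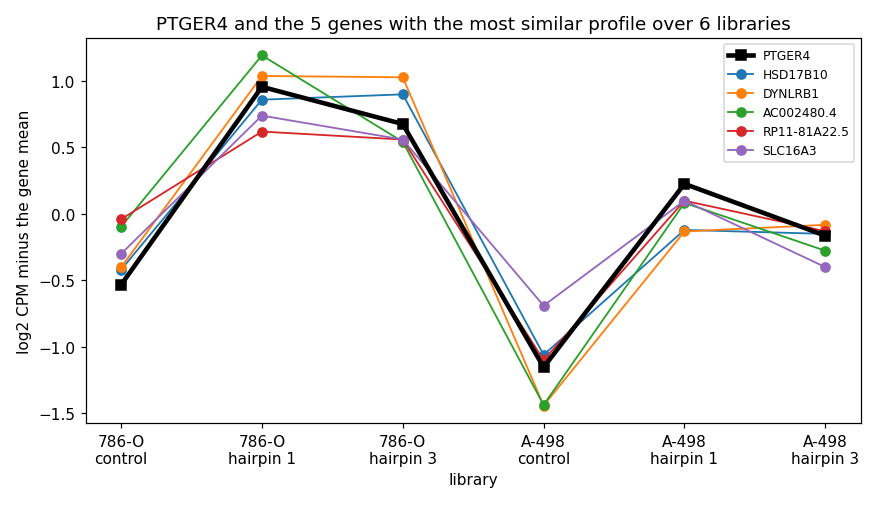
Log2 CPM minus the gene mean in the 6 libraries for PTGER4 (black squares) and the 5 genes most like it, joined by lines that only link the points of a gene. In every gene both knockdown libraries of a line lie above its control, and the A-498 control is the lowest point. This shared pattern follows from the selection of genes by their likeness to PTGER4.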

How the data were processed

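Total RNA of 6 libraries was measured, and the authors deposited whole-number counts per gene symbol without normalization. The deposited mean signal of a gene was recomputed from the counts with DESeq2 size factors (median absolute difference 2.36e-09). Per the file headers, further columns, named as in DESeq2 output, compare control over knockdown: log2 fold changes, their standard errors, Wald scores and raw or adjusted p-values. STAR, DESeq2, hg19 and hs37d5 are named per the submitters' processing notes, with no role or order, and no counter, annotation or strand setting is stated there. Of the count columns 0 were left unlisted.

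The main tests were run in edgeR 4.0.16 under R 4.3.3 (TMM scaling, expression filter over knockdown status, quasi-likelihood F tests, Benjamini-Hochberg adjustment over 20144 genes, call at an adjusted p under 0.05). Line and construct were in 1 model (2 residual degrees of freedom), where the lines serve as replicates. The difference in response used 4 means (2 residual degrees of freedom), where the hairpins of a line serve as replicates. P-values measure only the spread these models leave. A gene with few counts in A-498 or 786-O can pass the expression filter through the other line, which favours a line difference. Standard errors come from the F statistic, and a prior count of 2 entered log CPM. The alternatives were RLE scaling, no filter, DESeq2 1.42.0, each library left out, and unscaled CPM. No label gives a batch or date. The genes, lists and tests were chosen with earlier results of these data known. Named list genes are those called, at most 4 per list and comparison by p, with PTGER3, PLA2G4A, overlapping genes and the 5 genes most like PTGER4. PTGDS, RAPGEF4, PDE4B and PDE4C were named after their counts were seen, as a limit on the line difference.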

Additional observations from a re-analysis of the deposited data

Results flagged for a closer look

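The ratios of PTGER1 and SLCO2A1 to the control lay on opposite sides of 1 in the lines. PTGER1 lay above its control in both 786-O knockdown libraries and below it in both of A-498. SLCO2A1 lay below its control in 786-O and above it in A-498 with hairpin 1 (ratio 2.13), while hairpin 3 in A-498 equalled the control at 7 counts each (ratio 1.02, 95% counting interval 0.305 to 3.40). For PTGER1 the difference in response was -2.84 on the log2 scale (A-498 minus 786-O, SE 1.04), on 3 to 21 counts per library, and for SLCO2A1 it was 1.84 (SE 0.940), on 7 to 12 counts in A-498. Neither passed edgeR's test of that difference (adjusted p = 1 for both, unadjusted p = 0.0340 and 0.0983).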

How the results depend on the processing

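With 1 library per line and construct, dropping a library leaves 1 residual degree of freedom, and the lone library of a construct is assumed to vary like the others. The number of genes called with hairpin 1 was 30, and 478 with no filter, 474 with DESeq2 and 0 to 608 with 1 library left out (0 when 786-O hairpin 1 was dropped, 7 for the A-498 control, 488 for A-498 hairpin 3 and 608 for 786-O hairpin 3). With hairpin 3 it was 1351, and 2654, 2623 and 121 to 2337 (121 without the A-498 control, 235 without that of 786-O). Between the hairpins it was 1910, and 3117, 2990 and 249 to 3312. The line difference stayed within 1.5 times its 12460 genes, and the difference in response stayed at 0. It could not be fitted without a control.

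Among the 10 genes, no called value changed sign. Values under the threshold that did were, with hairpin 1, PTGER2 (-0.30 with DESeq2, -2.56 to 0.22 with 1 library left out) and, with 1 library left out, PTGER1 (-1.12 to 1.66), PTGS1 (-0.57 to 0.42), PTGES2 (-0.02 to 0.05), PTGES3 (-0.15 to 0.02) and SLCO2A1 (-1.13 to 0.77). With hairpin 3 they were PTGER1 (-1.37 to 1.40), PTGS2 (-0.25 to 0.01), PTGES3 (-0.23 to 0.10) and SLCO2A1 (-1.39 to 0.46). Between the hairpins they were PTGER2 (-4.63 to 0.58), PTGES3 (-0.17 to 0.16) and SLCO2A1 (-1.52 to 0.29). For the difference in response they were PTGER4 (-0.37 to 0.05), PTGS2 (-0.83 to 0.85), PTGES (-0.11 to 1.98) and PTGES2 (-0.04 to 0.12). The cause of these shifts was not tested. Unscaled CPM moved 6 of 60 levels, all of PTGES2 or PTGES3, outside their counting interval. Depth limits PTGER1, PTGER3 and, in A-498, PTGER2, HPGD and SLCO2A1. PTGER1 missed the expression filter when the 786-O hairpin 1 or hairpin 3 library was dropped, and DESeq2 gave no adjusted p for PTGER1 and SLCO2A1 in the hairpin comparisons or for PTGS1 with hairpin 1.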
